A study of Mus musculus with 13 samples.

Results

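The blood vessels of the brain carry genes that start clotting, genes that hold it back and genes that dissolve the clot, and 9 of them were followed here in the neurovasculature of mice given lipopolysaccharide (LPS) with or without an inhibitor of monoacylglycerol lipase (MAGL). They were chosen by symbol: *Vwf* (von Willebrand factor), *F8* (factor VIII), *F3* (tissue factor), the anticoagulants *Thbd*, *Procr* and *Tfpi*, and the plasminogen system genes *Plat*, *Plau* and *Plaur*. All 9 were found among the 47643 genes of the count table, and all 9 were among the 17285 genes tested. Vessels were prepared from the frozen brains of 13 male CD1 mice, 8 to 10 weeks old, and their polyA RNA was sequenced. The 4 sham-vehicle mice received PBS in place of LPS, and vehicle (DMSO, Cremophor and saline, 5:5:90). The 5 LPS-vehicle mice received *Salmonella enterica* LPS intraperitoneally, 3 mg/kg at 0, 6 and 24 h, and the vehicle. The 4 LPS-CPD-4645 mice received the same LPS and the MAGL inhibitor CPD-4645 subcutaneously, 10 mg/kg, 30 min after each LPS dose according to the labels. All mice were euthanized at 28 h, each library is 1 mouse, and no group received CPD-4645 without LPS.

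Tissue factor on a cell surface binds factor VII and starts the cascade that ends in thrombin and fibrin. Factor VIII speeds up the formation of factor Xa and circulates bound to von Willebrand factor, which endothelial cells store in Weibel-Palade bodies together with P-selectin. Intact endothelium holds the cascade back with tissue factor pathway inhibitor, and with thrombomodulin, which turns thrombin towards protein C, and the endothelial protein C receptor, which presents protein C to it. Plasminogen is cleaved to plasmin by tissue-type plasminogen activator (*Plat*) and by urokinase (*Plau*), and the urokinase receptor (*Plaur*) holds urokinase at the cell surface.

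The libraries held 7813559 to 55133373 counts, with the fewest in LPS-vehicle mouse 3, followed by LPS-CPD-4645 mouse 1. The brains had not been perfused, and the libraries were not made of vessel RNA alone. The 7 neuronal markers summed to 7619 to 10545 CPM (normalised read counts, scaled by TMM and library size), against 237 to 572 CPM for the 10 endothelial markers. The endothelial sum was 237 to 379 CPM in sham-vehicle, 310.0 to 572 CPM in LPS-vehicle and 304 to 403 CPM in LPS-CPD-4645 mice, with LPS-vehicle mouse 3 lowest of its group. In such bulk samples, more cells of a type and more RNA per cell cannot be told apart. The 10 neutrophil markers summed to 3.65 to 11.2, 72.6 to 290.0 and 7.94 to 28.5 CPM in the same order of groups, and the 8 monocyte and macrophage markers to 20 to 25.6, 56.2 to 103 and 28 to 38.5 CPM. The 8 platelet markers summed to 3.80 to 8.80 CPM in all mice. *Gp1ba* and *Gp6* were at or below 3 counts in every library. *Itga2b* averaged 3.68, 4.4 and 2.84 CPM and *Pf4* 0.976, 0.889 and 1.29 CPM in the same order of groups. The 6 erythrocyte markers summed to 468 to 957, 239 to 461 and 325 to 705 CPM in that order. All 4 of them that were tested were lower with LPS, where 8.86% of all genes were lower.

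Comparing LPS-vehicle with sham-vehicle mice asks what the endotoxin did. *Vwf*, *F3*, *Procr*, *Plat* and *Plaur* rose, *Plau* fell, and *F8*, *Thbd* and *Tfpi* did not pass the test. These are 6 of 9 genes at an adjusted p of at most 0.05 (edgeR quasi-likelihood test, adjusted over all genes tested), where 19.9% of all 17285 genes passed. With a change of at least 2-fold also required, the threshold of the study, 4 of the 9 remained (*Vwf*, *Procr*, *Plat* and *Plaur*), against 5.68% of all genes. The median log2 fold change of the 9 genes was 0.81, and its median size without the sign was 0.90, against 0.23 over all genes tested. Setting LPS-CPD-4645 against LPS-vehicle asks what the inhibitor changed in LPS-treated mice. *F3* rose further, *Vwf*, *F8* and *Procr* fell, and the plasminogen system genes did not pass. These are 4 of 9 genes where 30.5% of all genes passed. The median log2 fold change of the 9 genes was -0.30, against -0.02 over all genes tested. Its median size without the sign was 0.37, close to the 0.30 over all genes tested. At the 2-fold threshold they were 3 of 9 (*Vwf*, *F8*, *Procr*) against 5.90%. Comparing LPS-CPD-4645 with sham-vehicle mice, *F3*, *Plat* and *Plaur* were higher and *Plau* was lower, 4 of 9 genes against 38.8% of all genes, and all 4 also passed the 2-fold threshold (11.1% of all genes).

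**Figure D1:**
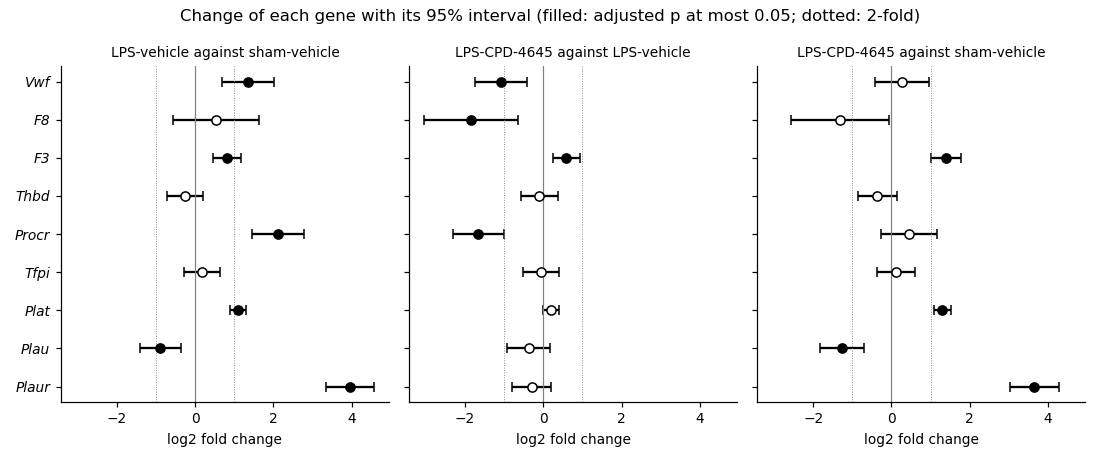
Log2 fold changes of the 9 genes (points) with 95% intervals (bars) in the 3 comparisons, from 1 edgeR fit of all 13 mice; filled points have an adjusted p of at most 0.05 and dotted lines mark a 2-fold change. *Plaur* lies farthest from 0 in both comparisons with sham-vehicle mice (3.95 and 3.65), and *Vwf*, *F8* and *Procr* lie below 0 when LPS-CPD-4645 is compared with LPS-vehicle (-1.07, -1.85 and -1.66).

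Since the 9 genes differ in length, their levels were compared as CPM per kilobase of exon (mean ± SD). In sham-vehicle mice (n = 4) *F3* was highest at 13.4 ± 2.92, followed by *Plat* at 7.84 ± 0.690 and *Thbd* at 4.10 ± 1.09. *Plau* (2.15 ± 0.266) and *Tfpi* (1.09 ± 0.0983) came next, and no 2 neighbours among these 5 genes overlapped over the 4 mice. *Procr* (0.661 ± 0.278), *Plaur* (0.646 ± 0.0582) and *Vwf* (0.640 ± 0.176) did not differ beyond their spread, and *F8* was last at 0.0658 ± 0.0345. In LPS-vehicle mice (n = 5) the order was *F3* (23.4 ± 3.96), *Plat* (16.7 ± 2.00), *Plaur* (9.98 ± 5.16), *Thbd* (3.39 ± 1.16) and *Procr* (2.87 ± 0.374), and then *Vwf* (1.61 ± 0.709), *Tfpi* (1.22 ± 0.280), *Plau* (1.20 ± 0.403) and *F8* (0.101 ± 0.0480). The ranges of *F3* and *Plat* overlapped there, as did those of *Plat* and *Plaur*, of *Thbd* and *Procr*, of *Vwf* and *Tfpi*, and of *Tfpi* and *Plau*. In LPS-CPD-4645 mice (n = 4) *F3* (35.3 ± 8.58), *Plat* (19.3 ± 2.05), *Plaur* (8.16 ± 0.632) and *Thbd* (3.20 ± 0.546) kept the first 4 places with ranges apart. *Tfpi* (1.19 ± 0.375), *Procr* (0.911 ± 0.352), *Plau* (0.899 ± 0.240) and *Vwf* (0.777 ± 0.249) followed, each overlapping the next, and *F8* (0.0258 ± 0.0162) was again last. Tissue factor was thus the most abundant of these mRNAs per length in all 3 groups, and the urokinase receptor went from the place of *Vwf* and *Procr* to a place just below *Plat*.

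RefSeq promoter windows (GRCm38.p6, the 250 bases before the start site) were matched for 5 of the 9 genes, namely *F3*, *Procr*, *Plaur*, *Tfpi* and *F8*. They were searched on both strands for TGANTCA (the AP-1 letters), GGGCGG (the Sp1/KLF letters), TATAAA and an NF-kB-like motif (GGG, any 3 bases, TTCC). The 3 genes shown are those that rose with LPS and had a window, and each holds the AP-1 letters, printed in capitals. All lie on the + strand, and the *Procr* stretch ends where the GENCODE gene begins.
F3, chr3:121723287-121723536: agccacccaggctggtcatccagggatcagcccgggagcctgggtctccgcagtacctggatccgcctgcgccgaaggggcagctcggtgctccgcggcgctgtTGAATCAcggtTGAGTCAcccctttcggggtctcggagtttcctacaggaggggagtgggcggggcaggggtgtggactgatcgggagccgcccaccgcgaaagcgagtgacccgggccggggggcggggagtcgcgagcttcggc
Procr, chr2:155750967-155751116: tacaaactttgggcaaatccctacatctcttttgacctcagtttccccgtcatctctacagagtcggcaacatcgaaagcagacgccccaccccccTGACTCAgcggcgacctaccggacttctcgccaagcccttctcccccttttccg
Plaur, chr7:24462233-24462482: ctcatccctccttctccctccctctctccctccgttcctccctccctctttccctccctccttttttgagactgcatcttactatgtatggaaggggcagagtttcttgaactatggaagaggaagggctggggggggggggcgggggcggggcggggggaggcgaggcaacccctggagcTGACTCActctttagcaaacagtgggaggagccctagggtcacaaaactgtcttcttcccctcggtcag

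*F3* held the AP-1 letters at 2 places, 146 to 140 and 135 to 129 bases before the RefSeq start. *Procr* held them 154 to 148 bases and *Plaur* 69 to 63 bases before it. Of the 32851 RefSeq windows of this length, 6.75% held these letters. GGGCGG was found in *F3*, *Plaur* and *Tfpi* (32.7% of all windows), TATAAA in *Tfpi* alone (12.4%), and the NF-kB-like letters given above in none of the 5 genes (4.65%). Other forms of the NF-kB motif were not searched, so sites that differ from these letters would be missed. *F8* held none of the 4 motifs in its window, which lies inside the GENCODE gene (chromosome X, 75380042 to 75380291) and not before its start. *Tfpi* had a window at the start of its GENCODE gene (84476760 to 84477009), which held TATAAA. It had another inside the gene (84474175 to 84474424), which did not. A match of letters is a description of the sequence and shows neither binding nor use of the site, and no match says only that the letters are not in the window.

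*Vwf* (chromosome 6 of GRCm38, 125546774 to 125686679) encodes von Willebrand factor, the multimeric protein that tethers platelets to injured vessel walls. Its level was 10.4, 12.7, 11.8 and 6.27 CPM in the 4 sham-vehicle mice. It was 20.8, 31.9, 8.07, 34.7 and 33.7 CPM in the LPS-vehicle mice and 13.8, 17.5, 8.39 and 10.3 CPM in the LPS-CPD-4645 mice. Of the 5 LPS-vehicle mice, 4 lay above every sham-vehicle and every LPS-CPD-4645 mouse, while mouse 3, the shallowest library, lay among the sham-vehicle mice. *Vwf* rose by 1.35 ± 0.32 on the log2 scale (SE) with LPS, 2.55-fold (adjusted p = 0.0054), and fell with CPD-4645 against LPS-vehicle by a log2 fold change of -1.07 ± 0.31 (adjusted p = 0.015). Between LPS-CPD-4645 and sham-vehicle mice the difference was 0.27 ± 0.33 (95% interval -0.42 to 0.97, adjusted p = 0.54). Without LPS-vehicle mouse 3 the changes were 1.56 ± 0.23 and -1.28 ± 0.23. Without LPS-CPD-4645 mouse 3 or 4, the fall was -0.91 (adjusted p = 0.056) or -0.98 (adjusted p = 0.051).

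*Vwf* is an endothelial gene, and some of the endothelial markers moved with it. Of the 10 markers, 4 were higher and 1 was lower with LPS, where 11.1% of all genes were higher and 8.86% lower. With CPD-4645 against vehicle after LPS, 5 were lower and 0 higher, where 16.4% of all genes were lower and 14.1% higher. *Tek* fell with LPS (-1.49 ± 0.31), and *Cdh5* rose with LPS (1.14 ± 0.16) but was at -0.02 ± 0.16 with CPD-4645 after LPS. Per 100 CPM of the summed endothelial markers, *Vwf* was at 2.64 to 3.89 CPM in sham-vehicle mice. In the LPS-vehicle mice it was at 4.28, 5.57, 2.60, 7.16 and 6.39 CPM per 100 CPM, again with mouse 3 in the sham-vehicle range, and in LPS-CPD-4645 mice at 2.44 to 5.16 CPM. With library sizes set to the endothelial marker counts, a scaling that moved the median of all genes by -0.59 and 0.40 in the 2 comparisons, *Vwf* changed by 0.69 with LPS (adjusted p = 0.026) and by -0.54 with CPD-4645 (adjusted p = 0.10). The gene therefore stayed past the threshold for LPS on this scale and did not for CPD-4645.

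*F8* (chromosome X, 75172715 to 75382615) encodes factor VIII, the cofactor that von Willebrand factor carries. It was the rarest of the 9 mRNAs, with 2 to 38 counts a library. The level was 1.08, 0.322, 0.757 and 0.444 CPM in sham-vehicle mice and 0.893, 0.448, 1.76, 0.931 and 0.984 CPM in LPS-vehicle mice. In LPS-CPD-4645 mice it was 0.158, 0.280, 0.113 and 0.471 CPM, so that 3 of the 4 lay below every LPS-vehicle mouse. The change with LPS was 0.53 ± 0.52 (adjusted p = 0.54), and *F8* fell with CPD-4645 against LPS-vehicle by a log2 fold change of -1.85 ± 0.57 (adjusted p = 0.021). The call was lost by limma-voom (-1.62, adjusted p = 0.062), on the endothelial scale (-1.45, adjusted p = 0.093), with a replicate block (-1.72, adjusted p = 0.061), without both shallowest libraries (-1.48, adjusted p = 0.086), and without LPS-CPD-4645 mouse 1 (-1.72, adjusted p = 0.054), 2 (-1.89, adjusted p = 0.054) or 3 (-1.58, adjusted p = 0.067). The span of the gene overlaps *Fundc2* and *Gm6039* on the other strand and *Gm8522* on the same strand, and it shares no exon with them.

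*F3* (chromosome 3, 121723537 to 121735048) encodes tissue factor, the starter of coagulation, which in brain is abundant in astrocytes. Its level was 42.3, 31.0, 36.6 and 25.1 CPM in sham-vehicle mice. After LPS it was 48.5, 54.3, 53.6, 67.6 and 71.8 CPM with vehicle, and 101, 111, 61.0 and 84.6 CPM with CPD-4645. All LPS-vehicle mice lay above all sham-vehicle mice, and 3 of the 4 LPS-CPD-4645 mice lay above all LPS-vehicle mice. *F3* rose by 0.81 ± 0.17 with LPS (adjusted p = 0.0023) and by a further 0.59 ± 0.17 with CPD-4645 (adjusted p = 0.012), and was 1.40 ± 0.18 higher in LPS-CPD-4645 than in sham-vehicle mice, 2.63-fold (adjusted p = 1.0e-05). It was the gene of the 9 that passed in all 3 comparisons, upward in each. The further rise was 0.47 (adjusted p = 0.060) without LPS-CPD-4645 mouse 2 and 0.50 (adjusted p = 0.064) without both shallowest libraries. On the endothelial scale the rise with LPS was 0.26 (adjusted p = 0.32), and the further rise with CPD-4645 was 1.01 (adjusted p = 0.0015). The 7 astrocyte markers summed to 1426 to 1884 CPM in sham-vehicle, 2081 to 2647 CPM in LPS-vehicle and 1913 to 2451 CPM in LPS-CPD-4645 mice. With LPS, 4 of the 7 were higher, where 11.1% of all genes were higher. The part of astrocytes in the level of *F3* was not tested.

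**Figure D2:**
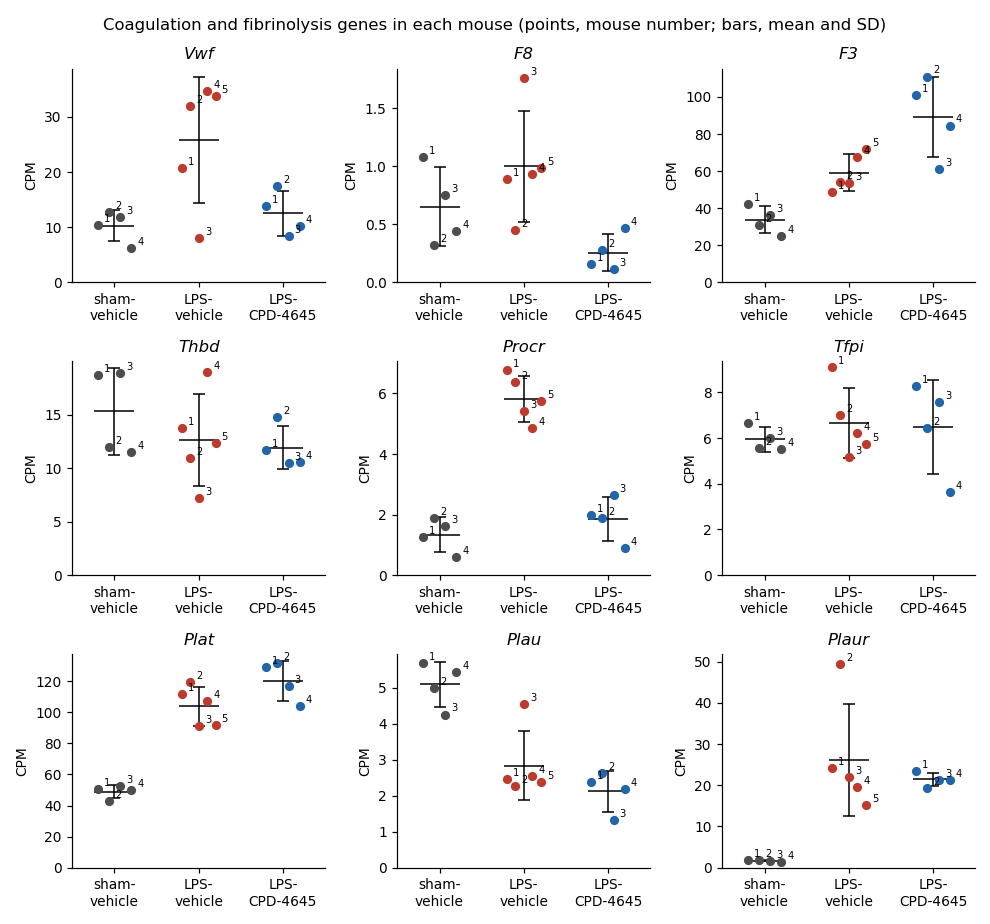
CPM of the 9 genes in each mouse (points, numbered by mouse) with the mean and SD of each group, on linear axes that start at 0. *Procr* was higher in all 5 LPS-vehicle mice (4.85 to 6.76 CPM) than in any other mouse, *F3*, *Plat* and *Plaur* were higher in every LPS-treated mouse than in the sham-vehicle mice, and LPS-vehicle mouse 3 stood apart for *Vwf* and *Plau*.

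Among the anticoagulants, *Procr* passed the test and *Thbd* and *Tfpi* did not. *Procr* (chromosome 2, 155751117 to 155755471) encodes the endothelial protein C receptor. Its level was 1.26, 1.89, 1.63 and 0.593 CPM in sham-vehicle mice and 6.76, 6.37, 5.42, 4.85 and 5.75 CPM in LPS-vehicle mice. In LPS-CPD-4645 mice it was 1.98, 1.89, 2.63 and 0.903 CPM. Every LPS-vehicle mouse lay above every mouse of both other groups, and the 2 other groups overlapped. *Procr* rose by 2.11 ± 0.32 with LPS, 4.31-fold (adjusted p = 1.1e-04), and was 3.16-fold lower with CPD-4645 than with vehicle after LPS (log2 fold change -1.66 ± 0.31, adjusted p = 8.1e-04). Between LPS-CPD-4645 and sham-vehicle mice the difference was 0.45 ± 0.34 (95% interval -0.26 to 1.16, adjusted p = 0.31). Unlike those of *Vwf* and *F3*, both calls held under all 24 alternatives, with values of 1.56 and -1.23 on the endothelial scale.

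*Thbd* (chromosome 2, 148404466 to 148408188) encodes thrombomodulin, the partner of the protein C receptor in the protein C pathway. It lay at 11.5 to 18.9 CPM in sham-vehicle, 7.18 to 19.0 CPM in LPS-vehicle and 10.5 to 14.8 CPM in LPS-CPD-4645 mice, and the 3 ranges overlapped. The log2 fold change was -0.26 ± 0.22 with LPS (95% interval -0.72 to 0.21, adjusted p = 0.47) and -0.10 ± 0.22 with CPD-4645 after LPS (95% interval -0.57 to 0.37, adjusted p = 0.76). On the endothelial scale *Thbd* was lower with LPS (-0.86, adjusted p = 0.0044). Within a library, the level of *Procr* per kilobase was 0.0948 to 0.288 of that of *Thbd* in sham-vehicle mice, 0.468 to 1.38 of it in LPS-vehicle mice and 0.157 to 0.460 of it in LPS-CPD-4645 mice, a ratio that no scaling between libraries can move. All LPS-vehicle ratios lay above all others.

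*Tfpi* (chromosome 2, 84432855 to 84476775) encodes tissue factor pathway inhibitor, which blocks the complex of tissue factor and factor VIIa. It lay at 5.53 to 6.67 CPM in sham-vehicle, 5.17 to 9.10 CPM in LPS-vehicle and 3.65 to 8.30 CPM in LPS-CPD-4645 mice. The log2 fold changes were 0.17 ± 0.22 with LPS (adjusted p = 0.65), -0.05 ± 0.22 with CPD-4645 after LPS (adjusted p = 0.87) and 0.12 ± 0.23 between LPS-CPD-4645 and sham-vehicle mice (95% interval -0.37 to 0.61, adjusted p = 0.72). The level of *F3* per kilobase was 9.82 to 13.7 times that of *Tfpi* within the sham-vehicle libraries, 11.5 to 27 times within the LPS-vehicle libraries and 17.3 to 50.1 times within the LPS-CPD-4645 libraries. The ratios of LPS-CPD-4645 and sham-vehicle mice did not overlap, and those of LPS-vehicle mice overlapped both.

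The plasminogen system genes changed with LPS in both directions, and none passed the test between the LPS-treated groups. *Plat* (chromosome 8, 22757727 to 22782844) encodes tissue-type plasminogen activator. Its level was 50.9, 42.7, 52.4 and 49.8 CPM in sham-vehicle mice. It was 112, 119.8, 91.4, 107 and 91.7 CPM in LPS-vehicle mice and 129, 132, 117 and 104 CPM in LPS-CPD-4645 mice. All LPS-treated mice lay above all sham-vehicle mice, and the 2 LPS-treated groups overlapped. *Plat* rose by 1.09 ± 0.10 with LPS, 2.13-fold (adjusted p = 4.6e-07), and was 2.46-fold higher in LPS-CPD-4645 than in sham-vehicle mice (log2 fold change 1.30 ± 0.11, adjusted p = 8.1e-08). The difference between the LPS-treated groups was 0.20 ± 0.10 (adjusted p = 0.12), and 0.28 (adjusted p = 0.050) without LPS-CPD-4645 mouse 4. On the endothelial scale the rise with LPS was 0.49 (adjusted p = 0.055), and *Plat* was higher with CPD-4645 than with vehicle after LPS (0.63, adjusted p = 0.028).

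*Plau* (chromosome 14, 20836660 to 20843385) encodes urokinase, the other plasminogen activator. It was at 5.70, 4.99, 4.26 and 5.43 CPM in sham-vehicle mice and at 2.47, 2.26, 4.54, 2.55 and 2.38 CPM in LPS-vehicle mice. In LPS-CPD-4645 mice it was at 2.37, 2.62, 1.32 and 2.20 CPM. All LPS-treated mice except LPS-vehicle mouse 3 lay below all sham-vehicle mice. *Plau* fell with LPS by a log2 fold change of -0.90 ± 0.25 (adjusted p = 0.017), or -1.08 (adjusted p = 0.0030) without mouse 3, and the call was lost without sham-vehicle mouse 1 (-0.83, adjusted p = 0.055) and with a replicate block (-0.84, adjusted p = 0.063). It was 2.40-fold lower in LPS-CPD-4645 than in sham-vehicle mice (log2 fold change -1.27 ± 0.27, adjusted p = 0.0013), and between the LPS-treated groups the difference was -0.37 ± 0.26 (95% interval -0.92 to 0.18, adjusted p = 0.30).

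*Plaur* (chromosome 7, 24462484 to 24475968) encodes the urokinase receptor, which is also found on neutrophils and monocytes. It was at 1.80, 1.81, 1.67 and 1.48 CPM in sham-vehicle mice. It was at 24.2, 49.5, 22.1, 19.5 and 15.3 CPM in LPS-vehicle mice and at 23.5, 19.4, 21.2 and 21.3 CPM in LPS-CPD-4645 mice. The LPS-treated mice lay far above the sham-vehicle mice, the LPS-CPD-4645 mice lay close together, and LPS-vehicle mouse 2 stood above all others. *Plaur* rose by 3.95 ± 0.29 with LPS, 15.4-fold (adjusted p = 4.7e-08), and was 12.5-fold higher in LPS-CPD-4645 than in sham-vehicle mice (log2 fold change 3.65 ± 0.30, adjusted p = 8.7e-08). The difference between the LPS-treated groups was -0.30 ± 0.24 (95% interval -0.80 to 0.20, adjusted p = 0.36), and 0.08 ± 0.14 without LPS-vehicle mouse 2.

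The neutrophil markers summed to 290.0 CPM in LPS-vehicle mouse 2, the mouse with the most *Plaur*, and to 72.6 to 115 CPM in the other LPS-vehicle mice. Without this mouse *Plaur* rose by 3.57 ± 0.17 with LPS (adjusted p = 1.7e-09). In the LPS-CPD-4645 mice the neutrophil sums of 27.7, 12.8, 7.94 and 28.5 CPM went with *Plaur* levels of 23.5, 19.4, 21.2 and 21.3 CPM. The monocyte and macrophage markers of the LPS-CPD-4645 mice summed to 28 to 38.5 CPM, above the 20 to 25.6 CPM of the sham-vehicle mice. The part of neutrophils and of monocytes and macrophages in the level of *Plaur* was not tested. Per kilobase, *Plaur* was 0.247 to 0.355 of *Plau* within the sham-vehicle libraries, 4.40 to 19.8 times *Plau* within the LPS-vehicle libraries and 6.71 to 14.5 times *Plau* within the LPS-CPD-4645 libraries. In sham-vehicle mice the enzyme thus had the higher mRNA level, and in every LPS-treated mouse its receptor did.

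**Figure D3:**
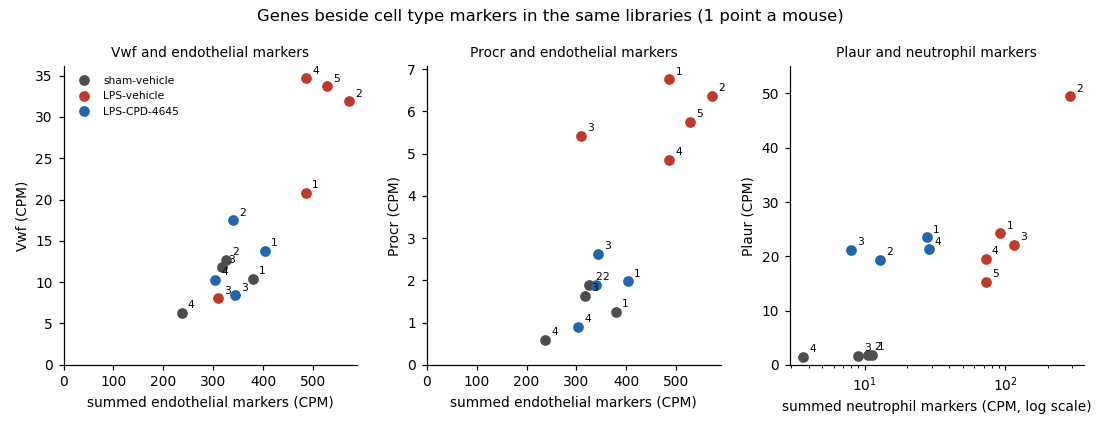
Levels of *Vwf* and *Procr* against the summed endothelial markers and of *Plaur* against the summed neutrophil markers (log axis), all in CPM, 1 point a mouse, numbered by mouse. LPS-vehicle mouse 3, with an endothelial sum of 310.0 CPM, had little *Vwf* (8.07 CPM) but 5.42 CPM of *Procr*, and the LPS-CPD-4645 mice had 19.4 to 23.5 CPM of *Plaur* at neutrophil sums of 7.94 to 28.5 CPM.

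Across mice, the groups of the 9 genes did not overlap between LPS-vehicle and sham-vehicle for 4 genes (*F3*, *Procr*, *Plat*, *Plaur*), where 18.1% of all genes showed no overlap. Between the LPS-treated groups this held for *Procr*, against 23.0% of all genes. Between LPS-CPD-4645 and sham-vehicle mice it held for *F3*, *Plat*, *Plau* and *Plaur*, against 37.5% of all genes. The 3 comparisons share their groups in pairs and are not independent of each other.

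The genes with the most similar pattern were sought by Pearson's correlation of log2 CPM over the 13 mice, among protein-coding genes averaging 1 CPM or more; the coefficients are descriptions over mice that share 3 treatments. *Vwf* went with *Ndrg2* (0.96), the endothelial adhesion gene *Pecam1* (0.93) and *Swap70* (0.92). *Procr* went with the cytoskeletal genes *Flna* (0.97) and *Diaph1* (0.95) and with *Rapgef3* (0.95). *F3* went with *Igfbp7* (0.96), *Igfbp3* (0.95) and *Hbp1* (0.95), and *Igfbp3* was at 22.5 ± 4.92, 60.8 ± 9.49 and 142 ± 24.9 CPM in sham-vehicle, LPS-vehicle and LPS-CPD-4645 mice. *Plat* went with *Pttg1ip* (0.98), the Toll-like receptor *Tlr2* (0.98) and *Emp1* (0.97). *Plaur* went with *Socs3*, an inhibitor of cytokine signaling, *Adamts1* and *Irf9* (0.98 each), and *Plau* with *Trmt10a*, *Gpd2* and *Pld5* (0.93 each). The closest genes were *Amn1* for *Thbd* (0.83) and *Mutyh* for *Tfpi* (0.83). Among the 9 genes themselves *Plat* and *Plaur* were the most alike (0.96), and 0.49 once the group means were removed, and *Plat* and *Plau* the most opposed (-0.84, and -0.19 without the group means).

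Beyond the 9 genes, 60 others of the clotting and fibrinolytic system were listed by function, and 40 of them were expressed enough to be tested. With LPS, 15 of the 40 were higher and 2 lower, with a median log2 fold change of 0.43, where 11.1% of all genes were higher and 8.86% lower. With CPD-4645 against LPS-vehicle, 4 were higher and 12 lower, with a median of -0.22, where 14.1% of all genes were higher and 16.4% lower. Between LPS-CPD-4645 and sham-vehicle mice 15 were higher and 6 lower, with a median of 0.52, where 19.5% of all genes were higher and 19.3% lower. On the endothelial scale the numbers were 12 higher and 8 lower with LPS, where 3.65% of all genes were higher and 47.0% lower on that scale, and 7 higher and 4 lower with CPD-4645 after LPS, where 24.9% were higher and 2.26% lower. Between LPS-CPD-4645 and sham-vehicle mice they were 10 higher and 5 lower, where 6.05% of all genes were higher and 12.3% lower.

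Of the 7 genes of Weibel-Palade bodies and *Vwf* cleavage, 3 were higher with LPS, where 11.1% of all genes were higher. *Selp*, the gene of P-selectin, was at 0.159 to 0.563 CPM in sham-vehicle, 10.9 to 26.8 CPM in LPS-vehicle and 2.45 to 7.51 CPM in LPS-CPD-4645 mice, and the 3 groups did not overlap. It rose by 5.80 ± 0.44 with LPS (adjusted p = 5.5e-08), changed by -1.84 ± 0.33 with CPD-4645 after LPS (adjusted p = 5.1e-04) and was 3.96 ± 0.45 higher in LPS-CPD-4645 than in sham-vehicle mice. *Angpt2*, an angiopoietin stored in the same granules, rose by 3.22 ± 0.35 with LPS, and the change with CPD-4645 after LPS was -0.27 ± 0.30 (adjusted p = 0.53). *Igfbp7* rose with LPS (0.78 ± 0.18) and again with CPD-4645 (0.55 ± 0.18), and *Edn1*, the gene of the vasoconstrictor endothelin, rose with CPD-4645 after LPS (0.83 ± 0.28, adjusted p = 0.029). *Adamts13*, the protease that cleaves von Willebrand factor, was 1.54 ± 0.205 CPM in sham-vehicle, 1.35 ± 0.379 CPM in LPS-vehicle and 0.735 ± 0.139 CPM in LPS-CPD-4645 mice, and lower in the last than in the first (-1.08 ± 0.35, adjusted p = 0.022).

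Other plasminogen system genes changed as well. *Anxa2*, which binds plasminogen and *Plat* protein at the endothelial surface, rose with LPS (1.51 ± 0.14) and was lower with CPD-4645 after LPS (-0.89 ± 0.14, adjusted p = 1.8e-04), and *Serpinf2*, the gene of antiplasmin, rose with LPS (2.10 ± 0.55, adjusted p = 0.011).

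Among 6 procoagulant factors tested, *F10*, *F13a1* and *Fga* were higher with LPS, where 11.1% of all genes were higher and 8.86% lower. *F13a1*, the fibrin-stabilizing factor of macrophages and platelets and a member of the macrophage marker list, was at 1.09 ± 0.332 CPM in sham-vehicle, 3.55 ± 0.590 CPM in LPS-vehicle and 0.930 ± 0.446 CPM in LPS-CPD-4645 mice (1.71 ± 0.33 with LPS, -1.98 ± 0.34 with CPD-4645 after LPS). *F10* was at most 0.0285 CPM in sham-vehicle and 0.0298 to 1.51 CPM in LPS-vehicle mice, and *Fga* had 0 counts in all sham-vehicle mice, where 3 counts over the group would be 0.0277 CPM, and 0.137 to 0.824 CPM in LPS-vehicle mice. Both genes passed the count filter only through LPS-treated mice, so their calls with LPS partly follow from that filter. *F10* was tested under 19 of the 24 alternatives, and not with LPS-vehicle mouse 1, 2, 3 or 4 left out. Among 6 other anticoagulants tested, *Pros1*, the gene of protein S, the cofactor of activated protein C, rose with LPS (1.34 ± 0.16) and *Serpind1* and *Hs3st1* fell (-0.94 ± 0.25 and -0.62 ± 0.11). Both vitamin K cycle genes, *Ggcx* and *Vkorc1*, which serve the carboxylation of clotting factors, were lower with CPD-4645 than with vehicle after LPS (-0.86 ± 0.16 and -0.78 ± 0.21), and their values with LPS were -0.17 and -0.03, neither past the test. Of the 7 platelet adhesion and thrombin receptor genes, *Itgb3* rose with LPS (0.77 ± 0.26, adjusted p = 0.041) and was lower with CPD-4645 after LPS (-1.09 ± 0.26). In the latter comparison 1 of the 7 was higher and 2 were lower, near the shares of all genes (14.1% and 16.4%). *Itga2b*, its partner in the platelet fibrinogen receptor, was at -0.66 ± 0.24 (adjusted p = 0.047), a call lost under 13 of the 24 alternatives. *Gp1bb*, of the platelet receptor for von Willebrand factor, which overlaps *Sept5* on the same strand, was at 0.60 ± 0.17 (adjusted p = 0.013), and at 0.49 (adjusted p = 0.056) without LPS-CPD-4645 mouse 4. The antiplatelet enzymes *Entpd1*, *Nt5e* and *Nos3* all rose with LPS (0.88 ± 0.16, 1.17 ± 0.16 and 1.15 ± 0.21), and with CPD-4645 after LPS *Nt5e* rose further (0.77 ± 0.15) while *Nos3* fell (-0.58 ± 0.20, adjusted p = 0.038). *Klf2*, a transcription factor that keeps endothelium anticoagulant, rose with LPS (1.28 ± 0.15), and *Klf4* did not pass the test. Of the other calls given for these genes, that of *Itgb3* with LPS was lost under 9 alternatives, those of *Nos3*, *Igfbp7* and *Edn1* with CPD-4645 after LPS under 9, 6 and 5, that of *Adamts13* under 4 and that of *Serpinf2* with LPS under 1 (limma-voom). On the endothelial scale the calls of *Igfbp7* and *Entpd1* with LPS and of *Anxa2*, *Ggcx*, *Vkorc1* and *Itgb3* with CPD-4645 after LPS were lost as well. The spans of *Selp*, *Angpt2*, *Igfbp7*, *Edn1*, *Anxa2*, *F13a1*, *Serpind1* and *Nos3* overlap genes on the other strand. Those of *Anxa2*, *Entpd1*, *Vkorc1* and *Itga2b* overlap genes on the same strand. Shared exons are not given here for these genes, and the strand counted is not stated. Whether reads of a partner entered their counts is therefore not known.

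**Figure D4:**
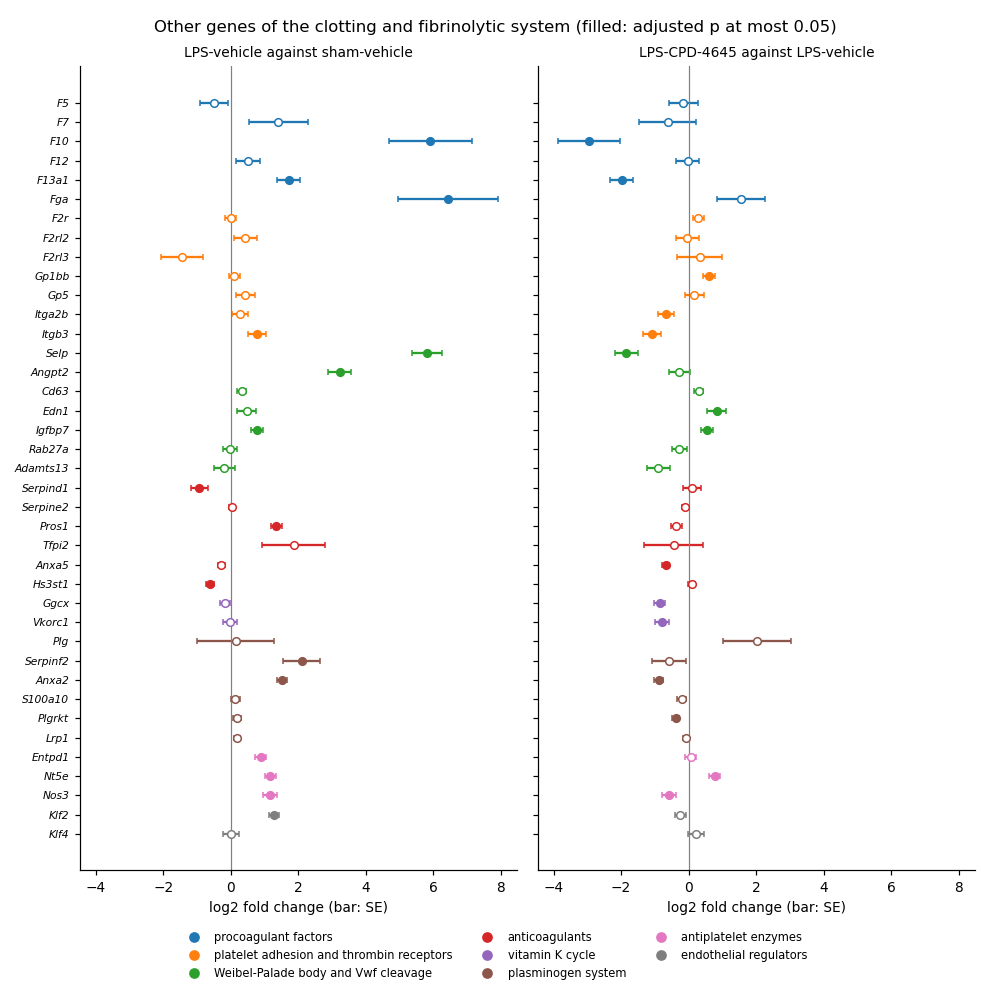
Log2 fold changes (points, bars SE) of 39 of the 40 other clotting and fibrinolysis genes tested, coloured by list, with LPS against sham-vehicle (left) and with CPD-4645 against vehicle after LPS (right); filled points have an adjusted p of at most 0.05. *Selp* rose with LPS by 5.80 and lay at -1.84 with CPD-4645; *F10* and *Fga* had almost no counts in sham-vehicle mice, so their fitted positions on the left are no measure of size.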

How the data were processed

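Neurovascular RNA of 13 mice was sequenced as 1 stranded single-end library a mouse (50 ng RNA). Per the labels and the study's methods, reads were made with bcl2fastq 2.15.0.4 and aligned with STAR 2.5.2a to GRCm38 (mm10), and the authors deposited whole-number counts per gene on the GENCODE basic annotation, without normalization; the strand column kept is not given in the sources used here. Groups came from sample titles. Identifiers were matched without version to GENCODE M21 (47224 of 47643); *Klkb1* is not analysed here, and a few gene-level results are not reported here. Counts were fitted with edgeR 4.0.16 in R 4.3.3 (filterByExpr, minimum count 10, minimum total 15, 17285 of 27934 genes with counts kept; TMM; 1 quasi-likelihood fit of 3 groups without covariates), with Benjamini-Hochberg adjustment over all genes tested. "Rose" and "fell" mean an adjusted p of at most 0.05. SE follow from the fold change and its F statistic. CPM used TMM-scaled totals (factors 0.908 to 1.08), and log2 CPM a prior count of 2. Exon lengths are the union of exons. P-values measure the spread between mice. Replicate pairs differed 9.5 to 58.9 times more than counting error (chi-square per gene), so no pair was the same library sequenced again. These values cannot tell separate mice from separate libraries of 1 mouse. The alternatives were limma-voom (the study's test, limma 3.58.1), DESeq2 1.42.0, voomWithQualityWeights, other scalings and filters, a replicate block and left-out mice. The code was tested on simulated data. Members, gene lists, motifs and tests were chosen with earlier results of these data known. Named genes are the 9 members, the genes of the functional lists that passed the 2-fold threshold at a mean of at least 1 CPM (at most 10 a comparison), and the 3 genes most correlated with each member; *F10*, *Fga*, *Serpind1*, *Hs3st1*, *Vkorc1*, *Gp1bb*, *Itga2b*, *Entpd1* and *Klf4* were named after their values were seen.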

Additional observations from a re-analysis of the deposited data

Results flagged for a closer look

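Over the 27 groups of values (9 genes in 3 groups), 2 held a mouse farther from its group than Dixon's critical value allows, where chance gives about 1 in 20. *Plau* in LPS-vehicle mouse 3, the shallowest library, was 4.54 CPM, with the other LPS-vehicle mice at 2.26 to 2.55 CPM. *Plaur* in LPS-vehicle mouse 2, the deepest library and the one with the highest neutrophil marker sum, was 49.5 CPM, with the other LPS-vehicle mice at 15.3 to 24.2 CPM.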

How the results depend on the processing

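Of the 645 values of single members under the 24 alternatives, 613 kept direction and call, 16 lost the call, 3 gained it and 13 changed sign, none of the last being a called value. On the endothelial scale the sign changed for *Tfpi* with LPS (-0.44), for *Thbd* (0.38), *Tfpi* (0.38), *Plau* (0.01) and *Plaur* (0.17) with CPD-4645 after LPS, and for *Tfpi* between LPS-CPD-4645 and sham-vehicle (-0.06). Leaving out mice changed the sign, with CPD-4645 after LPS, of *Thbd* (0.09 without LPS-vehicle mouse 4), *Tfpi* (0.08 without LPS-vehicle mouse 1 and 0.16 without LPS-CPD-4645 mouse 4) and *Plaur* (0.08 without LPS-vehicle mouse 2). Over all left-out mice these ran from -0.23 to 0.09, from -0.17 to 0.16 and from -0.45 to 0.08. Between LPS-CPD-4645 and sham-vehicle, *Tfpi* was -0.05 by voomWithQualityWeights, -0.0020 without LPS-CPD-4645 mouse 1 (up to 0.33 without mouse 4) and -0.01 without both shallowest libraries. With 1 mouse left out, the number of members past the adjusted p was 5 to 6 with LPS, 2 to 4 with CPD-4645 after LPS and 4 in each case between LPS-CPD-4645 and sham-vehicle. At the 2-fold threshold it was 4 to 5, 1 to 3 and 4. With CPD-4645 after LPS it was 2 at the adjusted p without LPS-CPD-4645 mouse 2 or 3 and without both shallowest libraries, and 1 at the 2-fold threshold without LPS-CPD-4645 mouse 3; the cause was not tested. With a replicate block, 1 member passed the 2-fold threshold with CPD-4645 after LPS, and the calls of *F8* there (-1.72, adjusted p = 0.061) and of *Plau* with LPS (-0.84, adjusted p = 0.063) were lost. Whether same-numbered mice were handled together is not stated in the sources used here. Their deviations from the group means had correlations of -0.035 to 0.114, which cannot decide it. No other call of a member changed under the block. *F8* was not tested at a mean count of at least 50, which it does not reach. The alternatives were applied to the other clotting genes after the data were seen: none of 1112 values of named genes, each in the comparisons where it was called, changed sign and 87 lost the call, most often *Nos3*, *Serpinf2*, *Itga2b* and *Itgb3*. Without TMM the median of all genes moved by 0.104 with LPS and -0.103 with CPD-4645 after LPS. Counting error limits *F8* most, at 2 to 38 counts.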
